A study of Mus musculus with 4 samples.

Results

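Prohormones are inactive precursors that become hormones by being cut, trimmed and capped on their way out of the cell. The 10 mouse genes described here encode the enzymes of those steps: the proprotein convertases Pcsk1, Pcsk2, Pcsk5, Pcsk6, Pcsk7 and Furin, which cut after basic residues, the carboxypeptidases Cpe and Cpd, which remove the basic residues left at the cut end, the amidating enzyme Pam, and the glutaminyl cyclase Qpct, which forms the pyroglutamate found at the start of some peptides. They were chosen by gene symbol, as 10 of the 23699 gene rows of each library. Each symbol matched 1 row with an OK status in every library, and all 10 passed the filter on low values (0.5 FPKM, averaged over 4 libraries, where FPKM is a fragment count scaled to transcript length and sequencing depth). In the gut, Pcsk1, Pcsk2 and Cpe work inside the secretory granules of enteroendocrine cells and neurons, whereas Furin, Pcsk7 and Cpd work in the general secretory route of most cells.

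RNA came from the 2 cm of colon next to the caecum in 6-week-old mice of mixed strain. The 2 control libraries had the genotype Nkx2.2flox/+, with one floxed allele of the gene for the homeodomain factor Nkx2-2 and no Cre named, and the 2 mutant libraries had Nkx2.2flox/flox; Villin-Cre/+, in which the Villin promoter drives Cre in the intestinal epithelium. Since Cre is named in the mutants alone, an effect of Cre and one of Nkx2-2 loss cannot be told apart. The labels do not state whether a group's libraries are separate animals. The p-values thus reflect the spread from library to library, which may be technical, and an exact permutation test of 2 against 2 could not go below 0.33.

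Nkx2-2 itself stood at 0.724 and 0.609 FPKM in the controls and at 0.125 and 0.351 FPKM in the mutants. Control 2 had 1.13, mutant 1 had 0.464 and mutant 2 had 1.03 times the sequencing depth of control 1, yet mutant 1 had 19756 genes above 0 FPKM against 17097 to 17178 in the other libraries. All 9 colon epithelium markers looked for, among them Vil1, Cdx2 and Epcam, were above 0 in every library. The median log2 change over the 13997 genes tested was −0.17 in the deposited values. It was −0.01 once each library was divided by its median ratio to the average library (median ratio rescaling), and 82.6% of genes had a change below 0 as deposited against 51.3% after rescaling. In whole tissue, fewer cells of a type and less RNA per cell cannot be told apart.

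The stretches before the start sites of Pcsk1 and of the pair of Furin transcripts are shown because Pcsk1 is the granule convertase most often linked to enteroendocrine cells and because the files split Furin by its start. RefSeq promoters of build GRCm38.p6 matched 8 of the 10 genes (not Cpe and Qpct). The 250 bases before each start are printed 5′ to 3′, on plus for Pcsk1 at chr13:75089607-75089856 and on minus for Furin at chr7:80405437-80405686 (upstream) and chr7:80402813-80403062 (downstream). Capitals mark, on either strand, AAGTG (the core of the Nkx2-2 site), TGACGTCA (the cyclic AMP response element), GGGCGG (the GC box) and TATAAA (the TATA box), and no marked stretches overlap.
Pcsk1: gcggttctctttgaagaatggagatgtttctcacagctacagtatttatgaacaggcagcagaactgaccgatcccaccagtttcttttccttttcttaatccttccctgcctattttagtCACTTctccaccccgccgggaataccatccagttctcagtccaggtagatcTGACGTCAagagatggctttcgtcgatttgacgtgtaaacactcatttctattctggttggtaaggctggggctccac
Furin upstream: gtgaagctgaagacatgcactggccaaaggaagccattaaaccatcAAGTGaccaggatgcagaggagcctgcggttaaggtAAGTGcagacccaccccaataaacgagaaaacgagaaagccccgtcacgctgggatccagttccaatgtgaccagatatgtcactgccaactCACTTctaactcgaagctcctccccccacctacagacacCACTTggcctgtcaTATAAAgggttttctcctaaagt
Furin downstream: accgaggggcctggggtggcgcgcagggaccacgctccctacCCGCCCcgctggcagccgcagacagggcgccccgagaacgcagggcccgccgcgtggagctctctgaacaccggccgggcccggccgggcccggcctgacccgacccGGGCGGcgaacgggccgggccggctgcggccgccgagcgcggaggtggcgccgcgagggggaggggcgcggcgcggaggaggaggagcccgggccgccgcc

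The upstream Furin window held AAGTG at 4 places and TATAAA starting 23 bases before the start, with 50.4% G and C, whereas the downstream window held 2 GC boxes, neither AAGTG nor TATAAA, and 83.2% G and C. The Pcsk1 window, with 46.8% G and C, held TGACGTCA 78 bases and AAGTG 129 bases before the start. AAGTG occurred in windows of 3 of the 8 genes (Furin, Pcsk1, Pcsk7) and in 40.7% of all 32851 RefSeq promoter windows of this length, TGACGTCA in 1 gene and 1.55% of all windows, GGGCGG in 7 genes and 32.7%, and TATAAA in 1 gene and 12.4%. Counted by window, as those shares are, the 10 windows of the 8 genes held AAGTG in 3, TGACGTCA in 1, GGGCGG in 8 and TATAAA in 1. The longer Nkx2-2 site TNAAGTGG was in none of the 8 genes' windows and in 2.74% of all windows. These letter matches are descriptions of sequence and not of binding. By exact match on mm9, the build of the files, the windows end 5 bases before the upstream Furin start, 50 bases before the downstream one and 130 bases before the Pcsk1 start of the deposited transcripts.

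Levels spanned about 2 orders of magnitude. By mean FPKM over the 4 libraries, Cpe was the most abundant at 56.1, followed by Pcsk7 at 41.6, Cpd at 39.1, Pam at 28.3, Furin at 18.4, Pcsk1 at 13.0, Pcsk5 at 6.90, Qpct at 6.88, Pcsk6 at 5.97 and Pcsk2 at 0.674. FPKM is per length, so these levels can be set against each other. Library ranges overlapped between neighbours in this order except from Cpd to Pam, from Pam to Furin and from Pcsk6 to Pcsk2, and within each of the 4 libraries Cpe also stood above Pcsk7, and Furin above Pcsk1. The order varied by library for Pcsk7 over Cpd (3 of 4 libraries), Pcsk1 over Pcsk5 (3 of 4), Pcsk5 over Qpct (2 of 4) and Qpct over Pcsk6 (2 of 4). The mean of Pcsk6 was 8.87 times that of Pcsk2, which like Pcsk1 works in granules. The Pcsk2 value in mutant 1 rested on 21 fragments.

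**Figure D1:**
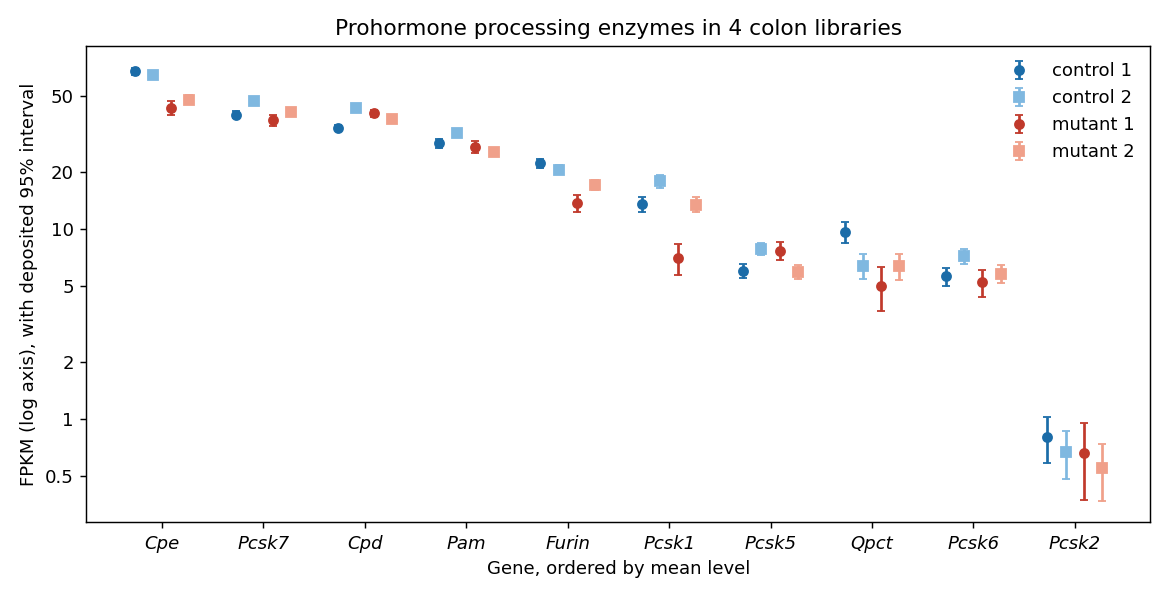
FPKM of the 10 enzyme genes on a log axis, ordered by mean level, with 1 point per library and the deposited 95% interval as bars. The mutant points of Cpe (43.5 and 48.2) and of Furin (13.7 and 17.1) lie with their intervals below those of both controls. The intervals cover counting error only, and the share of all genes with such a gap was not counted. Pcsk2 stays under 0.81 in every library.

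The main question was whether the enzymes changed with the mutation. None of the 10 passed in limma (Benjamini-Hochberg adjusted p under 0.05 over all genes), against 9 of 13997 genes, or 0.0643%. At an unadjusted p under 0.05, 2 were lower (Cpe and Furin) and 0 higher, beside 4.12% of all genes lower, and after median ratio rescaling 1 was lower (Cpe), beside 1.88% of all genes. In the authors' deposited table, 0 members had an adjusted p under 0.05, against 8 of 23284 genes (0.0344%), and 0 had an unadjusted p under 0.05. The log2 change was below 0 in 9 of the 10 as deposited and in 7 after rescaling, and the median of the members was −0.19, against −0.17 for all genes, and −0.04 after rescaling, against −0.01. Both mutant libraries lay below both controls for 6 members (Pcsk1, Pcsk2, Furin, Cpe, Pam and Qpct), beside 35.1% of all genes. After rescaling they did so for 2, Furin and Cpe, beside 16.2% of all genes.

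**Figure D2:**
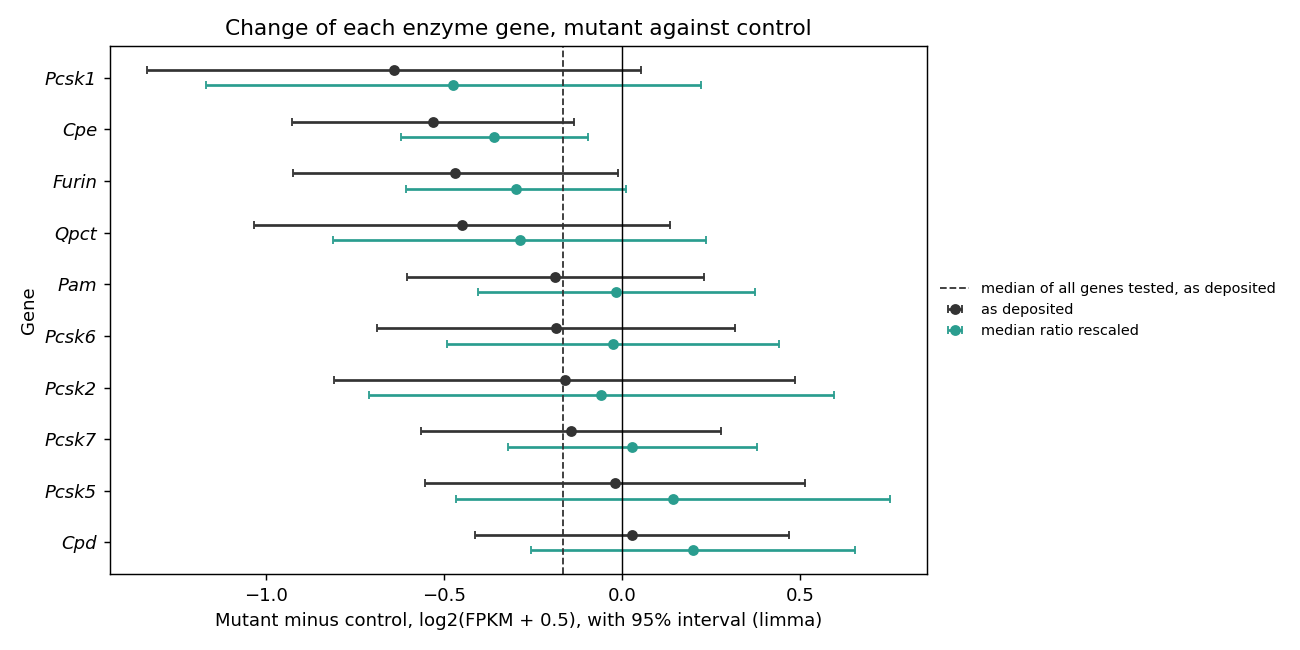
Difference between mutant and control on the log2(FPKM + 0.5) scale for each enzyme gene, with its 95% interval from limma, as deposited (dark) and after median ratio rescaling (green). The dashed line is the median of all genes as deposited (−0.17), and among the deposited values only the intervals of Cpe and Furin leave out 0.

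Of the convertases of the regulated granule route, Pcsk1, which cuts proglucagon and proopiomelanocortin among others, lies on mm9 at 75227435 to 75269946 of chromosome 13. It stood at 13.5 and 17.9 FPKM in the controls and 7.06 and 13.5 FPKM in the mutants. Behind these levels were 469, 701, 114 and 483 fragments. Mutant 1 was low and mutant 2 was level with control 1 (13.4725 against 13.4942), so the groups met without a gap. Pcsk1 had a log2 change of −0.64 (SE 0.30, 95% interval −1.34 to 0.05, limma adjusted p = 0.825). It moved with mutant 1, at −0.20 without that library and −1.08 without mutant 2, and with the controls, at −0.84 without control 1 and −0.44 without control 2. In mutant 1 the 10 enteric neuron markers summed to 26.7 FPKM, against 41.6 to 53.1 FPKM in the other libraries (30.3 against 41.4 to 49.8 after rescaling). As deposited, mutant 1 also had the lowest sums of glia, smooth muscle, fibroblast, endothelium, T cell and myeloid markers. It did not have the lowest sums of enteroendocrine, colon epithelium or B cell markers. The part of any of these cells in the Pcsk1 value was not tested.

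Pcsk2, the partner convertase of granules, which releases glucagon in islet alpha cells, lies at 143371869 to 143642018 of chromosome 2. It stood at 0.805 and 0.674 FPKM in the controls and 0.662 and 0.553 FPKM in the mutants, on 55, 49.99, 21 and 37.1 fragments. The mutant values were the lower ones, but all 4 intervals overlapped. At −0.16, its log2 change had an interval from −0.81 to 0.49 (limma adjusted p = 0.862), which holds a change as large as the −0.64 of Pcsk1. It was −0.06 after rescaling, where mutant 1 was the highest library at 0.752 FPKM, −0.086 without control 1 and −0.091 without mutant 2.

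Furin, the convertase of the trans-Golgi network that acts on growth factors, receptors and matrix proteins, lies at 87534080 to 87550317 of chromosome 7. It stood at 22.3 and 20.6 FPKM in the controls and 13.7 and 17.1 FPKM in the mutants. Both mutant intervals lay below both control intervals, but these cover counting error only, and the share of all genes doing so was not counted. The mutant levels stayed below the control levels after rescaling, at 20.5 and 19.8 against 15.5 and 17.03 FPKM. Furin had a log2 change of −0.47 (SE 0.20, interval −0.92 to −0.01), or −0.30 after rescaling (interval −0.61 to 0.01), with limma adjusted p = 0.825 and 1.00. Without each library in turn it ran from −0.63 to −0.31.

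Pcsk7, a membrane-bound convertase found in most tissues, lies at 45714652 to 45737805 of chromosome 9. It was the most abundant convertase, at 40.2 and 47.3 FPKM in the controls and 37.6 and 41.3 FPKM in the mutants, and the groups overlapped. Its log2 change was −0.14 (interval −0.57 to 0.28) and 0.03 after rescaling. Pcsk6, a secreted convertase that binds the cell surface and matrix, lies at 73007022 to 73195272 of chromosome 7, and had 5.63 and 7.18 FPKM in the controls and 5.24 and 5.84 FPKM in the mutants. Its log2 change was −0.19 (interval −0.69 to 0.32), −0.02 after median ratio rescaling and 0.02 after quantile normalization. For Pcsk6 and Pcsk7 the controls differed from each other beyond their counting intervals, while the mutants did not.

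Pcsk5, which exists as a soluble form sorted to granules and a membrane-bound form, lies at 17507322 to 17912122 of chromosome 19. It stood at 6.03 and 7.87 FPKM in the controls and 7.71 and 5.98 FPKM in the mutants, so each group held a high and a low library. Its log2 change was −0.02 (interval −0.55 to 0.51), 0.14 after median ratio rescaling, 0.19 after quantile normalization and 0.18 in the authors' deposited table.

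As shares of the 6 convertases summed within a library, which dividing a library by 1 factor cannot move, Pcsk7 made up 45.4% and 46.6% of convertase FPKM in the controls and 52.2% and 49.0% in the mutants. Pcsk1 made up 15.3% and 17.6% in the controls and 9.82% and 16.0% in the mutants, and Furin 25.2% and 20.3% against 19.0% and 20.3%. The Pcsk7 share lay above both controls in each mutant library, whereas the Pcsk1 and Furin shares overlapped between the groups. The sum itself was 88.4 and 101.5 FPKM in the controls and 72.0 and 84.3 FPKM in the mutants. These shares were looked at after the values were seen and have no test.

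**Figure D3:**
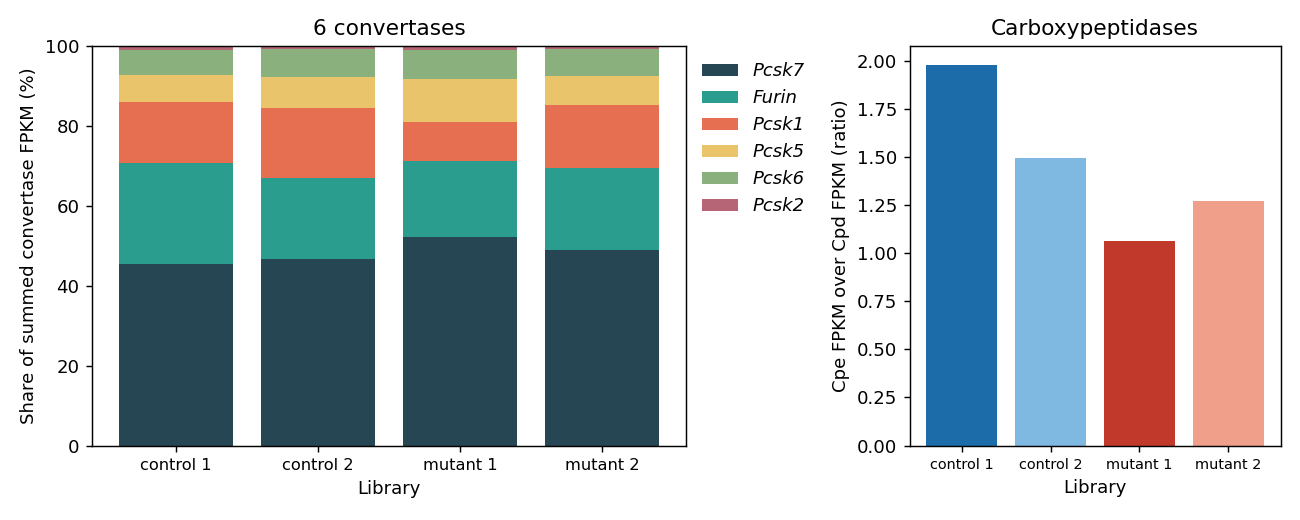
Left, the share of each convertase in the summed FPKM of 6 convertases in each library, in percent. Right, the ratio of Cpe to Cpd FPKM in each library, which is 1.98 and 1.498 in the controls and 1.07 and 1.27 in the mutants.

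Of the carboxypeptidases, Cpe was lower in both mutants and Cpd overlapped between the groups. Cpe, which trims granule peptides after the convertases, lies at 67071349 to 67171837 of chromosome 8. It stood at 67.9 and 65.0 FPKM in the controls and 43.5 and 48.2 FPKM in the mutants, on 1926, 2081, 573 and 1410 fragments. The controls agree within counting error, as do the mutants, and both mutant intervals lie below both control intervals. How many of all genes show such a gap was not counted. Cpe had a log2 change of −0.53 (SE 0.17, interval −0.93 to −0.14), a level 1.45-fold lower, with limma adjusted p = 0.825. After rescaling the values were 62.4 and 62.6 against 49.4 and 47.9 FPKM, with a log2 change of −0.36 (interval −0.62 to −0.10, limma adjusted p = 1.00). Leaving out 1 library at a time gave −0.61 to −0.46. The authors' deposited table gives −0.39 with an adjusted p of 1 and a p of 0.0531.

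Cpd, the carboxypeptidase of the trans-Golgi network, lies at 76590710 to 76660510 of chromosome 11. It stood at 34.3 and 43.4 FPKM in the controls and 40.8 and 37.9 FPKM in the mutants, on 2554 to 6600 fragments. The mutants lay between the controls. Cpd had a log2 change of 0.03 (interval −0.41 to 0.47) and 0.20 after rescaling (interval −0.25 to 0.66), and the authors' deposited table gives 0.17. The ratio of Cpe to Cpd, chosen after its values were seen, was 1.74 ± 0.341 in the controls and 1.17 ± 0.145 in the mutants (SD, n = 2 each), and the groups did not overlap.

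Pam, which turns a terminal glycine into an amide with the help of copper and ascorbate, lies at 99717671 to 99992209 of chromosome 1. It stood at 28.3 and 32.0 FPKM in the controls and 27.2 and 25.5 FPKM in the mutants. The gap between the groups was smaller than the gap between the controls. Pam had a log2 change of −0.19 (interval −0.61 to 0.23), close to the median of all genes, and −0.02 after rescaling, where the groups overlapped.

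Qpct lies at 79451246 to 79489583 of chromosome 17 and stood at 9.72 and 6.42 FPKM in the controls and 5.002 and 6.38 FPKM in the mutants, on 251, 187, 60.0 and 170 fragments. Control 1 was high and the other libraries lay together. The log2 change was −0.45 (interval −1.03 to 0.13, limma adjusted p = 0.825), −0.17 without control 1 and −0.73 without control 2. Control 1 also carried the B cell markers: the summed FPKM of 6 such genes was 132.8 there and 9.996 to 14.3 in the other libraries, with Pax5 at 0 in 1 library. As deposited, control 1 had the highest sums of T cell (193.0 against 63.9 to 119.7 FPKM) and myeloid markers (75.9 against 36.5 to 59.7 FPKM) as well. The same held for neuron, glia, smooth muscle, fibroblast and endothelium markers. The part of these cells in the Qpct value was not tested.

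Of the 10 genes, 8 have 1 deposited transcript, and Furin and Pcsk5 have 2 each. Among 16903 isoforms tested, 1 passed (0.00592%), and none of the 12 transcripts of these genes did. The Furin transcripts share 15 of their 16 GENCODE exons and the start codon in the second exon, and their starts lie 2669 bases apart, so they differ in the first exon only and encode the same protein of 2379 coding bases. NM_001081454, from the upstream start, had 11.2 and 14.2 FPKM in the controls and 8.88 and 10.3 FPKM in the mutants. NM_011046, from the downstream start with the GC-rich window, had 11.1 and 6.40 FPKM in the controls and 4.8 and 6.83 FPKM in the mutants. The upstream transcript made up 50.2% of Furin FPKM in control 1, 68.9% in control 2, 64.9% in mutant 1 and 60.1% in mutant 2.

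The upstream Furin transcript had its lowest levels in the mutants, though the intervals of control 1 (10.1 to 12.2) and mutant 2 (9.34 to 11.3) overlapped. The downstream transcript was high in control 1, and the other libraries lay between 4.8 and 6.83 FPKM. Their log2 changes were −0.38 (interval −0.92 to 0.16) and −0.52 (interval −1.38 to 0.34), each with limma adjusted p = 0.853. The upstream value was −0.21 after median ratio rescaling and −0.21 without control 2. The downstream value was −0.15 without control 1, the library highest in B cell, T cell and myeloid markers among others. The part of these cells in it was not tested.

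The Pcsk5 transcripts share 20 exons and part at the 3′ end. NM_001190483 has 18 further exons and 5631 coding bases (the membrane-bound form), and NM_001163144 has 1 further exon and 2745 coding bases (the soluble form). The long form had 4.93 and 6.50 FPKM in the controls and 5.48 and 5.17 FPKM in the mutants, and the short form 1.10 and 1.37 FPKM against 2.23 and 0.807 FPKM. Mutant 1 held the highest and mutant 2 the lowest level of the short form, and their intervals (1.67 to 2.78 and 0.575 to 1.04) did not overlap. The long form made up 81.7% and 82.6% of Pcsk5 FPKM in the controls and 71.1% and 86.5% in the mutants, so the mutants lay on either side of the controls.

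**Figure D4:**
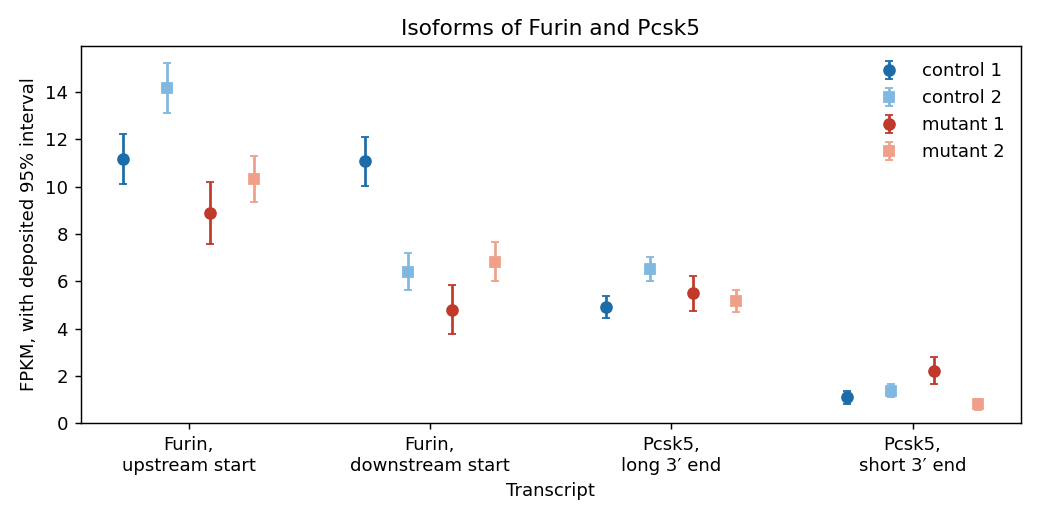
FPKM of the Furin and Pcsk5 transcripts with the deposited 95% intervals, 1 point per library. The downstream Furin transcript is highest in control 1 (11.1) and the short Pcsk5 transcript highest in mutant 1 (2.23).

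Other genes of the pathway were read beside the members. Of 10 further processing enzymes 9 were tested (not Cpz), 8 were lower and 1 higher, beside 82.6% of all genes lower, and 0 passed in limma (2 lower at an unadjusted p under 0.05, beside 4.12% of all genes). Their median was −0.28, or −0.11 after rescaling, again with 8 lower and 1 higher. The most abundant were the cathepsins Ctsb (174.6 and 175.8 FPKM against 136.7 and 165.7 FPKM in the mutants) and Ctsl, and the site-1 protease Mbtps1. Ctsl stood at 69.2 and 96.4 FPKM in the controls and 69.4 and 66.3 FPKM in the mutants, and Mbtps1 at 34.9 and 39.5 against 26.2 and 35.4 FPKM. Ctsl overlapped between the groups, as did Mbtps1.

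Of 9 helpers and inhibitors all were tested, all 9 had changes below 0, beside 82.6% of all genes, and 0 passed in limma (2 lower at an unadjusted p under 0.05, beside 4.12% of all genes). Their median was −0.13, and after rescaling it was 0.02, with 4 lower and 5 higher. Pcsk1n, the proSAAS inhibitor of Pcsk1, stood at 5.89 and 5.78 FPKM in the controls and 2.81 and 3.54 FPKM in the mutants, a log2 change of −0.79 (SE 0.22, limma adjusted p = 0.825). Both mutants were low. Scg5, the 7B2 chaperone that Pcsk2 needs to mature, had 3.78 and 8.73 FPKM in the controls and 5.34 and 6.14 FPKM in the mutants, with the controls on either side. Cyb561, which recycles ascorbate in granules for Pam, had 57.4 and 60.3 against 50.6 and 57.3 FPKM, and the copper pump Atp7a 7.84 and 6.11 against 6.27 and 7.09 FPKM.

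Among the substrates some genes passed. Of 25 prohormone and granin genes 21 were tested, and 17 were lower and 4 higher (also after rescaling). Of all genes 82.6% were lower as deposited and 51.3% after rescaling. The list median was −0.49, or −0.35 after rescaling, against −0.17 and −0.01 for all genes. In limma 4 of the list passed, beside 0.0643% of all genes. The list was chosen with earlier results of these data known, so its count cannot be weighed against that share. Chga and Chgb, whose granins are cut by the convertases in granules, and Insl5, a relaxin-family hormone of colonic endocrine cells, fell, with log2 changes of −2.98, −3.53 and −2.49, and Ghrl, the ghrelin precursor, rose, with 2.33 (limma adjusted p = 0.0163, 0.0302, 0.0140 and 0.0163). None of these 4 passed after median ratio rescaling, where their log2 changes were −2.82, −3.36, −2.35 and 2.49 and their limma adjusted p 0.211, 0.341, 0.160 and 0.160. Changes of that size lie outside the 95% interval of every enzyme. For Pcsk2 this says nothing of a fall, since its low level does not allow one of that size on the log2(FPKM + 0.5) scale. The lowest bound was −1.34, for Pcsk1, and the highest 0.51, for Pcsk5. The difference between enzymes and substrates was not tested.

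Among 14 substrates whose products carry the amide that Pam makes, 12 were tested, and 9 were lower and 3 higher (also after rescaling). Of all genes 82.6% were lower as deposited and 51.3% after rescaling. The list median was −0.36, or −0.22 after rescaling, and 0 passed in limma. At an unadjusted p under 0.05 in limma, 3 were lower and 1 higher. Of all 13997 genes, 675 had such a p in either direction, and 577 (4.12%) were lower. Pyy, the peptide YY gene, stood at 57.2 and 96.7 FPKM in the controls and 197.7 and 165.7 FPKM in the mutants. Its log2 change of 1.28 did not pass (limma adjusted p = 0.404). Pam lay within 25.5 to 32.0 FPKM in the whole tissue. Gcg, which Pcsk1 cuts into the glucagon-like peptides, had 61.8 and 119.4 against 116.3 and 95.01 FPKM, with a log2 change of 0.29 (limma adjusted p = 0.828). Sct, the secretin gene, had 86.5 and 163.5 FPKM in the controls and 93.4 and 110.3 FPKM in the mutants.

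**Figure D5:**
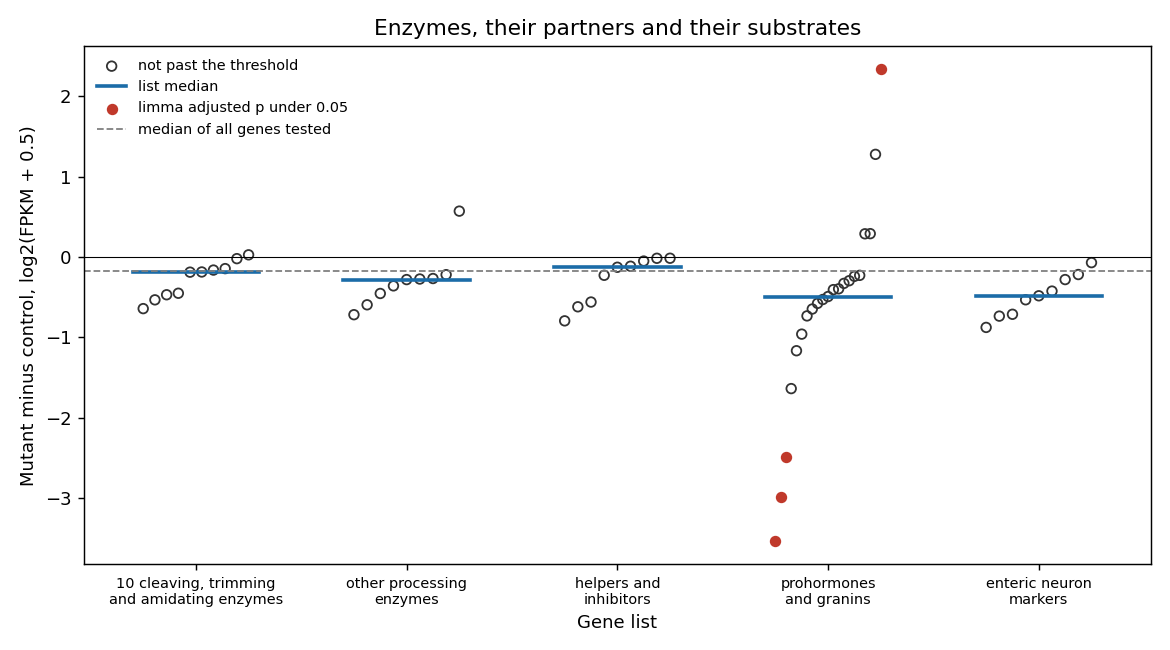
Log2 change (mutant minus control) of each tested gene in 5 lists, sorted within a list, with the list median as a bar and the median of all genes as a dashed line. The enzymes lie between −0.64 and 0.03, and the filled points that passed in limma (Chgb at −3.53 and Ghrl at 2.33 at the ends) are all among the prohormones and granins.

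Marker genes of other cells of the wall were read in the same way, and none of those for neurons, glia, endothelium, T cells, muscle, fibroblasts or myeloid cells passed in limma. Of 9 tested enteric neuron markers 6 lay below both controls in each mutant, beside the 35.1% of all genes. All 10 of the list summed to 51.6 and 53.1 FPKM in the controls and 26.7 (mutant 1) and 41.6 (mutant 2) FPKM in the mutants. None was at 0 in any library. Of 5 enteric glia markers 4 did so (9.32 to 11.5 against 5.61 to 6.43 FPKM), of 5 endothelium markers 4 (23.8 to 25.1 against 16.0 to 19.0 FPKM), and of 5 T cell markers 4 (119.7 to 193.0 against 63.9 to 80.9 FPKM), none at 0. After rescaling, where 16.2% of all genes did so, it was 6 of 9 tested neuron, 4 of 5 glia, 3 of 5 endothelium and 4 of 5 T cell markers. Most of the deposited T cell sum came from Ccl5, at 153.9 and 98.5 FPKM in the controls and 47.2 and 63.8 FPKM in the mutants. Of the 12 enteroendocrine markers 11 were tested. In limma 4 passed as lower (Tph1, Chga, Chgb and Insl5) and 1 as higher (Ghrl), beside 0.0643% of all genes. None of these passed after median ratio rescaling, and this list too was chosen with earlier results of these data known. Tph1, which starts serotonin synthesis in enterochromaffin cells, stood at 15.4 and 18.8 FPKM in the controls and 0.354 and 1.40 FPKM in the mutants (log2 change −3.79, limma adjusted p = 0.0140, and 0.160 after rescaling). The markers summed to 340.5 to 488.6 FPKM in the controls and 367.6 to 408.1 FPKM in the mutants, and the abundant Pyy, Gcg and Sst are part of that sum. Fibroblast markers summed to 358.3 to 419.1 against 319.3 to 335.9 FPKM, smooth muscle markers overlapped between the groups, and so did 6 myeloid markers, of which S100a8 and S100a9 were at 0 in 1 library. After rescaling, the neuron, glia, endothelium and T cell sums still lay lower in both mutants, and the fibroblast sums overlapped. The part of these cells in the values of Cpe, Furin and Pcsk1 was not tested.

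Cpe and Furin had the smallest unadjusted p among the members, and the genes nearest to them in pattern were taken by the Euclidean distance between centred log2(FPKM + 0.5) values over the 4 libraries, among the 9312 genes that averaged 5 FPKM or more. For Cpe they were Immp1l (distance 0.0394), Tmem9 (0.0475) and Csad (0.0479). For Furin they were Rps29 (0.0101), Ppap2b (0.0384) and Rnf13 (0.0391). With 4 libraries, such likeness is a description of values only.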

How the data were processed

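The 4 libraries fall into 2 groups of 2 by their genotype. Per the file headers, the authors deposited FPKM for genes and RefSeq transcripts, each with a 95% interval and a status. Per the submitters' processing notes, the authors used bcl2fastq 1.8.4, TopHat, Cufflinks, DESeq and mm9. The isoform files hold a coverage signal, as deposited, from which relative depth was taken. The authors' deposited table of the series gives mean normalized values by group (a signal), the fold change as a ratio, its log2 and raw and adjusted p-values. No count model was fitted, since FPKM are normalized.

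Of 23699 gene rows, 306 lacking an OK status in some library were left out, and rows of one symbol were summed. The 13997 genes averaging 0.5 FPKM or more entered limma 3.58.1 (R 4.3.3) as log2(FPKM + 0.5), with a variance trend and Benjamini-Hochberg adjustment over all of them, and 16903 isoforms were treated alike. There were 2 residual degrees of freedom and 6.27 prior ones. Log2 changes are on that scale, which understates changes of low genes. In genes with 1 isoform, fragments were read from the interval width, and below 50 fragments 86.9% to 87.8% of them by library lay within 0.05 of a whole number. The fit was tested on simulated data, where it recovered 50% of 2-fold and 98% of 4-fold changes, with 8 false calls. The simulated spread depended on expression level alone, with no spread particular to a gene and no shift between libraries. These rates thus need not hold for the real values. The changed genes were taken from above the lowest levels. Changes under 2-fold were not simulated, and the largest change of a member was 1.56-fold (Pcsk1). That no member passed thus does not show that none changed. Alternatives covered the pseudocount, filter, scaling, variance model, row handling, replicate number and each library left out.

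The members and lists were chosen with earlier results of these data known. All members are named, and of each other list the 4 most abundant tested genes may be named together with any that passed. Vil1, Cdx2, Pax5, S100a8 and S100a9 fall outside this rule and were named after their values were seen. Some genes that this rule names are not reported here.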

Additional observations from a re-analysis of the deposited data

How the results depend on the processing

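None of the enzyme genes tested passed in limma under any of the 14 alternatives to the analysis (9 were tested with the filter at 1 FPKM, which drops Pcsk2, and 10 under the others), or in the authors' deposited table. In the alternatives that kept all 4 libraries, 1 or 2 of them had an unadjusted p under 0.05 in limma, Cpe each time. Among all genes, the fewest to do so were 458 of 14010, after median ratio rescaling. The most were 903 of 13997, with the replicate number as a block. Over all genes the number that passed, 9, became 2 with no filter, 3 after median ratio rescaling, 2 after quantile normalization, and 8 to 362 with 1 library left out (8 without mutant 1 and 362 without control 2). The number of isoforms, 1, became 0 with no filter, 0 without a variance trend, 3 with rows of any status and 0 to 0 with 1 library left out. The cause of these moves was not tested. Leaving out a library leaves a lone sample that is assumed to vary like the other group.

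With the replicate number as a block, 195 genes and 2 isoforms passed, and none of the 10 enzymes. The difference between the controls correlated at −0.002 with that between the mutants, so the libraries share a number and no pairing is shown.

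Directions near 0 turned. Pcsk5 was 0.14 after median ratio rescaling, 0.19 after quantile normalization, 0.18 in the authors' deposited table and −0.20 to 0.16 with 1 library left out. Pcsk6 was 0.023 after quantile normalization, and Pcsk7 was 0.029 after median ratio rescaling and 0.016 after quantile normalization. Cpd ran from −0.14 to 0.20 with 1 library left out. The long Pcsk5 transcript was 0.077 and 0.12 after the 2 scalings and −0.26 to 0.10 with 1 library left out, and the short one −0.41 to 0.65. Pcsk1, Pcsk2, Furin, Cpe, Pam and Qpct stayed below 0 throughout. Values in mutant 1, at 0.464 of the depth of control 1, rest on fewer fragments, and intervals from fragments cover counting error only.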
